A study of Mus musculus with 30 samples.

Results

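Tandem CTCF sites are here places where peak summits of the architectural protein CTCF were called at neighbouring positions no more than 1000 bp apart. They were taken from 3 peak lists of WT mouse embryo trunk. Peak summits of the 3 lists were linked when they lay within 150 bp of each other, and a site was kept where a peak of every list covered the median summit. Of 46282 such sites on the autosomes, 4959 (10.7%) had another kept site within 1000 bp and are called tandem. They are set against the 23765 isolated sites (51.3%), whose neighbours were all more than 10 kb away. The other 17558 sites had their nearest neighbour between these distances and are used only in counts over all sites.

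The libraries came from ChIPmentation, a chromatin immunoprecipitation in which sequencing adapters are inserted into the DNA while it is still on the beads. All embryos were of the B6CBAF1 strain and were collected at embryonic stage E10.5. The trunk was processed embryo by embryo, and homozygous mutants carried alleles named for the CTCF binding sites (CBS) of the HoxD cluster that they change. There were 11 mutant and 3 WT libraries for CTCF, and 12 mutant and 4 WT libraries for RAD21, a subunit of cohesin. For CTCF the mutant libraries were 3 of Del(CBS1), 1 of Del(CBS1-2), 2 of Del(CBS1-3), 2 of Del(CBS1-4), 2 of Del(CBS1-5) and 1 of Del(CBS2). For RAD21 they were 3 of Del(CBS1), 2 of Del(CBS1-2), 2 of Del(CBS1-3), 2 of Del(CBS1-4), 2 of Del(CBS1-5) and 1 of Del(CBS2). WT embryos were littermates of the mutants. The peak lists held 40011 to 88323 summits for CTCF and 16676 to 48102 for RAD21, and read depth was unknown. The trunk holds many cell types, so in every value below a site bound in fewer cells and a site bound more weakly in each cell cannot be told apart.

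CTCF is a zinc finger protein that recognises a long, directional DNA motif. Cohesin, a ring-shaped complex that includes RAD21, extrudes loops of chromatin and is halted at CTCF bound in the right orientation, so that many CTCF sites also carry cohesin. Clustered CTCF sites are known from domain boundaries, from the imprinting control region of H19 and from the protocadherin clusters.

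Sequence was at hand only for promoter windows, the 300 bases from 250 before to 50 after a gene start (RefSeq, GRCm38.p6, the assembly named mm10 in the peak lists' notes). A short core of the CTCF motif, CCA, then 2 of any base, AG, 2 of any base and GGC, was searched in them on both strands. It occurred in 28 of 194 windows holding tandem sites (14.4%), in 116 of 783 windows holding isolated sites (14.8%) and in 797 of all 32851 windows (2.43%). Of 184 tandem sites inside such windows, 23 (12.5%) had the core within 100 bp, with a median distance of 12 bp from site to core, against 101 of 719 isolated sites (14.05%) at 24.0 bp. Both the stronger site of a tandem group (13 of 104) and the other sites (10 of 80) had it in 12.5% of cases. In pairs whose sites had different summits in all 3 WT lists, 7 of 42 stronger (16.7%) and 3 of 31 weaker sites (9.68%) had it. These counts are small and were not tested. A match is a description of letters and no evidence of which bases were bound, and its absence says only that these letters are not there.

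7 examples show the DNA under one site of a pair whose 2 sites had summits of their own in all 3 WT lists, ordered by mean CTCF fold in WT. They were picked, after their values were seen, from 10 such sites with the core nearby; those at Gm32630, Selenov and Gm46771 are not printed. Capitals mark the core, and each is printed 5′ to 3′ on the strand of the gene named. Cryz encodes a quinone reductase and Nifk a nucleolar protein that binds the Ki-67 antigen. Nectin2 encodes a cell adhesion protein and Fgf7 a fibroblast growth factor. The Cryz stretch is chr3:154596612-154596663 (plus strand), Nifk chr1:118321726-118321777 (plus), Tex48 chr4:63622616-63622667 (minus), Gm46521 chr15:80225397-80225448 (plus), Nectin2 chr7:19749711-19749762 (minus), Gm26812 chr8:121850135-121850186 (plus) and Fgf7 chr2:126034458-126034509 (plus).
Cryz: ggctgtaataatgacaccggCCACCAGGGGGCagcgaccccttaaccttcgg
Nifk: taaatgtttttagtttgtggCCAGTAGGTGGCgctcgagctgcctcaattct
Tex48: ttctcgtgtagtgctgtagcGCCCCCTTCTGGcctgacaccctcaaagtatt
Gm46521: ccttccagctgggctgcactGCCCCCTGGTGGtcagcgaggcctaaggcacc
Nectin2: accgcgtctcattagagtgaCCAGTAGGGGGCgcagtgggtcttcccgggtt
Gm26812: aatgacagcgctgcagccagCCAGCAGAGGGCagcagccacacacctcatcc
Fgf7: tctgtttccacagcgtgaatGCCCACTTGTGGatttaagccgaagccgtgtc

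The first 5 were the stronger site of their pair and the last 2 the weaker. Fold here is the authors' enrichment of a summit over its local background within its own library. The mean WT CTCF fold was 17.4 at Cryz, 12.7 at Nifk, 11.04 at Tex48, 10.2 at Gm46521, 9.72 at Nectin2, 8.52 at Gm26812 and 4.34 at Fgf7. The distance from site to core was 5 bp at Cryz, 1 bp at Nifk, 2 bp at Tex48, 36 bp at Gm46521, 9 bp at Nectin2, 22 bp at Gm26812 and 18 bp at Fgf7. RAD21 had a peak over the site in all 16 libraries at Cryz, Nifk, Tex48, Gm46521 and Gm26812, in 9 at Nectin2 and in 6 at Fgf7. Of the sites not printed, Gm32630 had RAD21 in 16 libraries, Gm46771 in 2 and Selenov, a stronger site, in 0. The printed examples thus leave out the sites with the least RAD21.

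In 12 promoter windows both sites of a pair fell within the same 300 bases, and only the window of Gm42228 held 2 copies of the core. Its sites lay 158 bp apart and shared a nearest CTCF summit in at least 1 WT list, so they are not 2 separately called sites throughout. They had the same mean WT CTCF fold of 3.66 and had no RAD21 peak in any library. The stretches around the copies start 111 bp apart and are identical at 37 of 52 bases, which is why they are shown. They are chr5:23853022-23853073, which runs past the gene start, and chr5:23853133-23853184, both printed on the minus strand with the core in capitals.
Gm42228, near the start: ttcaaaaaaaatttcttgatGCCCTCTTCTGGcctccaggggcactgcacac
Gm42228, upstream: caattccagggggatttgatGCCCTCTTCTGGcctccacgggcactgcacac

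The 4959 tandem sites formed 2408 groups. Of these, 2275 were pairs, 127 had 3 sites, 5 had 4 sites and 1 had 8. The smallest spacing in a pair was 152 bp, which the linking distance sets, and the median was 383 bp (interquartile range 273 to 604.5 bp). Tandem sites made up 7.99% of the sites of chromosome 13 and 12.7% of those of chromosome 12, the lowest and highest shares among the autosomes.

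Whether a pair stands for 2 separately called summits depended on its spacing. In 974 of the 2275 pairs (42.8%) the sites had different nearest summits in all 3 WT lists. In the other 1301 pairs at least 1 WT list gave both sites the same summit, so that their name as 2 sites rests on summits called at different places in different libraries. Pairs with separate summits were 8 of 467 (1.71%) at spacings of 150 to 250 bp and 122 of 756 (16.1%) at 250 to 400 bp. They were 425 of 633 (67.1%) at 400 to 700 bp, and all 419 pairs at 700 to 1000 bp. The chromatin had been sheared to an average of 250 to 300 bp per the labels; the part of fragment length in the closest pairs was not tested. A tandem site had its nearest summit within 100 bp in all 3 WT lists in 3167 of 4959 cases (63.9%), against 22549 of 23765 isolated sites (94.9%). In the closest pairs 1 summit could count for both sites.

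**Figure D1:**
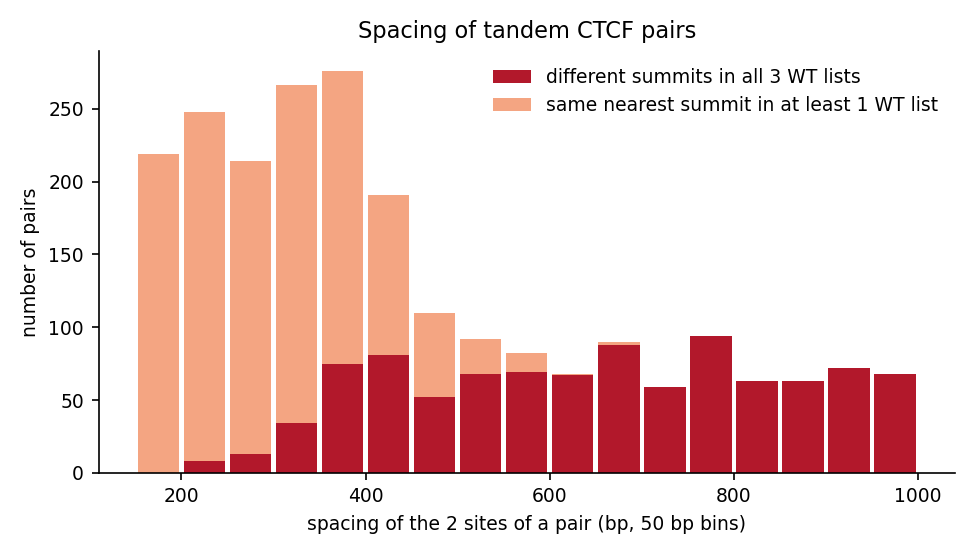
Number of tandem pairs (y) by the spacing of their 2 sites in 50 bp bins (x, bp). Dark bars are pairs with different summits in all 3 WT lists and light bars pairs that shared a nearest summit in at least 1 list; all 419 pairs above 700 bp had different summits.

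In the WT lists that chose the sites, tandem sites were of lower CTCF enrichment than isolated ones, which is given as a description with no test. The median of the mean WT fold was 6.87 at tandem sites, 9.52 at isolated sites and 8.40 at all sites. By fold percentile, the rank of a site among all detected sites of a library, the medians were 35.7 for tandem and 57.4 for isolated sites. When all sites were divided into 4 classes of equal size by this percentile, the weakest class held 34.5% of tandem and 19.8% of isolated sites, and the strongest class 7.70% of tandem and 32.5% of isolated sites. With classes of the WT -log10 p, chosen after the data were seen, the weakest class held 26.2% of tandem and 26.8% of isolated sites, and the strongest 16.6% of tandem and 24.8% of isolated sites. The excess of tandem sites in the weakest class was thus seen by fold and not by -log10 p. Within pairs the values were uneven. Among the 974 pairs with separate summits, the median fold was 8.94 at the stronger site and 4.92 at the weaker, with a median ratio of 1.61 and a ratio of at least 2 in 323 pairs (33.2%). The stronger site is the one with the higher mean WT fold, and 152 of all pairs had equal values and no stronger site.

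The 11 mutant CTCF libraries were not used to choose the sites and show how often the members were found again. A site counts as detected when a peak of the library covers it. Detection of tandem sites was lowest at 69.9% in Del(CBS1-3) replicate 2, had a median of 91.0% and was highest at 98.7% in Del(CBS1-3) replicate 1. Isolated sites were detected at 73.1% to 99.4%, with a median of 96.1%. Tandem sites were below isolated sites in 10 of 11 libraries, with a mean difference of -2.12 percentage points (SD 1.79, 2-sided exact sign-flip permutation over libraries, p = 0.00195, adjusted over 7 tests 0.00228). The 2 groups of sites overlap widely across libraries, and the list lengths of the libraries move with detection. The size and sign of this difference changed in other views of the sites. It was 17.3 points below isolated sites (difference -17.3) where a summit had to lie within 100 bp. It was 2.56 points above isolated sites for peaks with a -log10 q of at least 10. For the stronger site of each group, picked by its WT CTCF fold, it was 3.98 points above. For pairs with separate summits it was 3.39 points above, a comparison added after the data were seen. These permutation tests measure the spread between libraries over the same fixed sites, not between sites.

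The CTCF level in the mutant libraries had the same order as in WT. The median fold percentile of tandem sites was 18.7 at the lowest, 34.6 at the median and 37.3 at the highest library, and that of isolated sites 37.3, 54.9 and 59.2. Tandem sites were lower in 11 of 11 libraries, by a mean of 20.6 percentile points (difference -20.6, SD 2.09, exact sign-flip permutation p = 0.000977, the smallest that 11 libraries allow, adjusted 0.00137). The size of this difference depended on the measure: it was -3.41 with ranks of -log10 p (exact sign-flip permutation p = 0.00195) and -4.86 for the stronger site of each group (p = 0.0166). Within the 4 classes of WT strength the mean difference was -0.0445 (permutation p = 0.991). Which site of a pair was stronger also recurred. Where both sites were found with different summits, the site stronger in WT was the stronger one in 83.4% to 90.9% of pairs of a mutant library (mean 87.2% ± 2.70, SD, n = 11). Both sites of a pair were detected in 79.7% ± 15.8 (SD, n = 11) of pairs, the stronger alone in 13.9% ± 9.40 and the weaker alone in 1.87% ± 1.14. Pairs of equal WT fold are kept in these 3 shares, labelled by position.

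**Figure D2:**
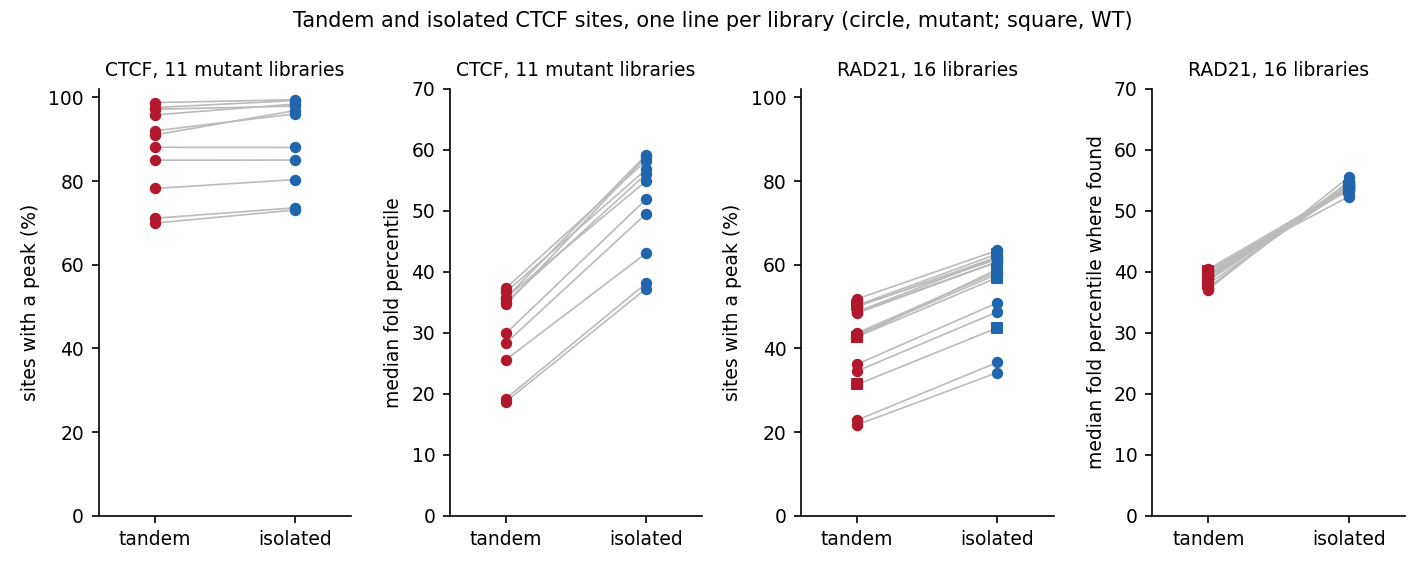
Tandem (left, red) and isolated (right, blue) sites in each library, joined by a line; circles are mutant and squares WT libraries. The panels give the percentage of sites with a peak and the median fold percentile for CTCF and for RAD21; RAD21 was found at fewer tandem than isolated sites in all 16 libraries.

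Cohesin was found at fewer tandem than isolated sites. The RAD21 lists played no part in choosing the sites. In the 12 mutant libraries RAD21 covered 21.7% to 51.8% of tandem sites (median 46.05%), against 34.2% to 63.4% of isolated sites (median 59.5%). In the 4 WT libraries it covered 31.4%, 50.3%, 42.8% and 42.8% of tandem sites and 44.9%, 62.6%, 56.9% and 58.9% of isolated sites. The difference was below 0 in 16 of 16 libraries and lay between -16.1 and -11.2 points, with a mean of -13.3 (SD 1.38, sign-flip permutation p = 3.05e-05, the smallest that 16 libraries allow, adjusted 5.34e-05). Libraries with short peak lists were low for both groups of sites, and the tandem deficit was present in each of them. Where RAD21 was found, its median fold percentile was 37.1 to 40.4 at tandem and 52.3 to 55.5 at isolated sites, which do not overlap (mean difference -15.0, SD 1.67, sign-flip permutation p = 3.05e-05, adjusted 5.34e-05). It was -6.33 with ranks of -log10 p and -9.52 for the stronger site of each group (permutation p = 3.05e-05 for both). RAD21 was present in all 16 libraries at 822 tandem sites (16.6%) and 6746 isolated sites (28.4%), and in none at 1519 tandem (30.6%) and 5604 isolated sites (23.6%).

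The deficit was not seen at the stronger site of a group. The stronger site alone, 1 per group, had RAD21 1.15 points more often than isolated sites (sign-flip permutation p = 0.00122). That site was picked for the higher WT CTCF fold of its group, while isolated sites were not picked. RAD21 covered 11.7% of isolated sites in the weakest and 92.2% in the strongest of 4 classes of WT CTCF fold percentile. The part of this choice in the difference was not tested. For the 974 pairs with separate summits the difference over both sites was -1.94 points (permutation p = 9.16e-05). In WT replicate 1, for example, RAD21 covered 45.6% of stronger and 16.97% of weaker sites of pairs, against 44.9% of isolated sites. Over 16 libraries the stronger site had RAD21 in 55.5% ± 9.99 of pairs and the weaker in 27.9% ± 9.39 (SD), with pairs of equal WT fold kept and labelled by position. Either site had it in 60.0% ± 10.3, the stronger alone in 32.1% ± 2.09 and the weaker alone in 4.51% ± 0.58.

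Tandem sites were also weaker in CTCF, and whether they had more or less RAD21 than isolated sites of like CTCF strength turned on how strength was measured. With the 4 classes of the WT fold percentile, RAD21 covered 19.2% ± 7.42 of tandem and 11.7% ± 6.15 of isolated sites in the weakest class (SD, n = 16). In the second class it covered 36.8% ± 10.9 of tandem and 29.7% ± 11.4 of isolated sites. In the next it covered 65.3% ± 12.4 of tandem and 63.5% ± 14.02 of isolated sites, and in the strongest 90.9% ± 7.07 of tandem and 92.2% ± 6.41 of isolated sites. The mean of the 4 differences was 3.74 points and above 0 in 16 of 16 libraries (sign-flip permutation p = 3.05e-05, adjusted 5.34e-05), and 14.8 points for pairs with separate summits. With 4 classes of the WT -log10 p, the same mean was -9.00 points, and -3.85 points for pairs with separate summits (permutation p = 3.05e-05 for both); these classes were chosen after the data were seen. It was also below 0 for sites with a neighbour at most 500 bp away (-1.38 points) and against all sites with no neighbour within 1000 bp (-0.64 points). No direction at equal CTCF strength can therefore be stated from these lists.

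**Figure D3:**
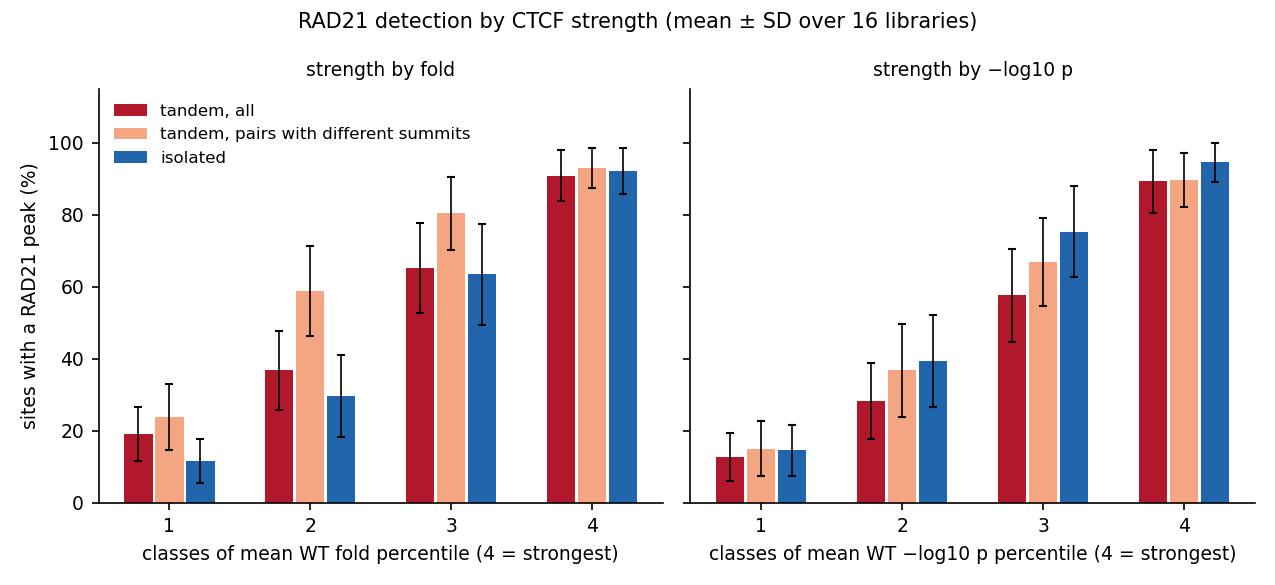
Percentage of sites with a RAD21 peak (y, mean ± SD over 16 libraries) by class of WT CTCF strength (x, 4 is strongest), for all tandem sites, tandem sites of pairs with separate summits, and isolated sites. With fold as the measure (left) tandem sites stand above isolated ones in the 3 weaker classes; with -log10 p (right) all tandem sites stand below them in all 4.

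RAD21 was found least often at the closest pairs. At 150 to 250 bp, RAD21 covered the stronger site in 23.9% ± 8.36 of pairs and the weaker in 20.2% ± 8.20 (SD, n = 16). At 250 to 400 bp the stronger site had it in 54.1% ± 11.03 and the weaker in 23.5% ± 9.90. At 400 to 700 bp these were 72.1% ± 11.3 for the stronger and 30.8% ± 9.97 for the weaker site, and at 700 to 1000 bp 68.3% ± 8.33 for the stronger and 40.1% ± 9.61 for the weaker. The stronger site led in each bin, least so in the closest pairs, whose median WT CTCF fold was 6.15 at the stronger and 5.72 at the weaker site. Pairs of equal WT fold are kept in these bins, labelled by position. Both sites carried RAD21 in 16.5% ± 7.12 of the closest and 31.2% ± 9.46 of the widest pairs. CTCF strength and the share of pairs with separate summits changed along the same bins, and their part in this trend was not tested.

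Within a pair the highest RAD21 summit usually lay at the site with more CTCF. Pairs were used where a RAD21 summit lay within 500 bp of either site, 866 to 1605 of them a library. The summit was nearer the stronger CTCF site in 79.9% to 85.3% of pairs, with a median of 81.7%. The mean excess over 50% was 32.1 points and above 0 in 16 of 16 libraries (sign-flip permutation p = 3.05e-05, adjusted 5.34e-05), and 25.7 points for pairs with separate summits. In pairs with separate summits it lay within 100 bp of the stronger site in 71.5% ± 1.65 of cases and of the weaker in 22.1% ± 1.61 (SD, n = 16). Few summits lay midway between the sites. The median distance from the RAD21 summit to the stronger site was 40.5 bp, against 29.9 bp to an isolated site (means over libraries). For isolated sites the summit was the nearest one in the covering peak, not the highest nearby, so the distances differ in definition. A second RAD21 summit within 500 bp of either site, whichever site it was nearer, was present in 40.6% ± 10.2 of these pairs. RAD21 peaks covered both sites in 31.5% ± 10.3 of all pairs with separate summits.

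**Figure D4:**
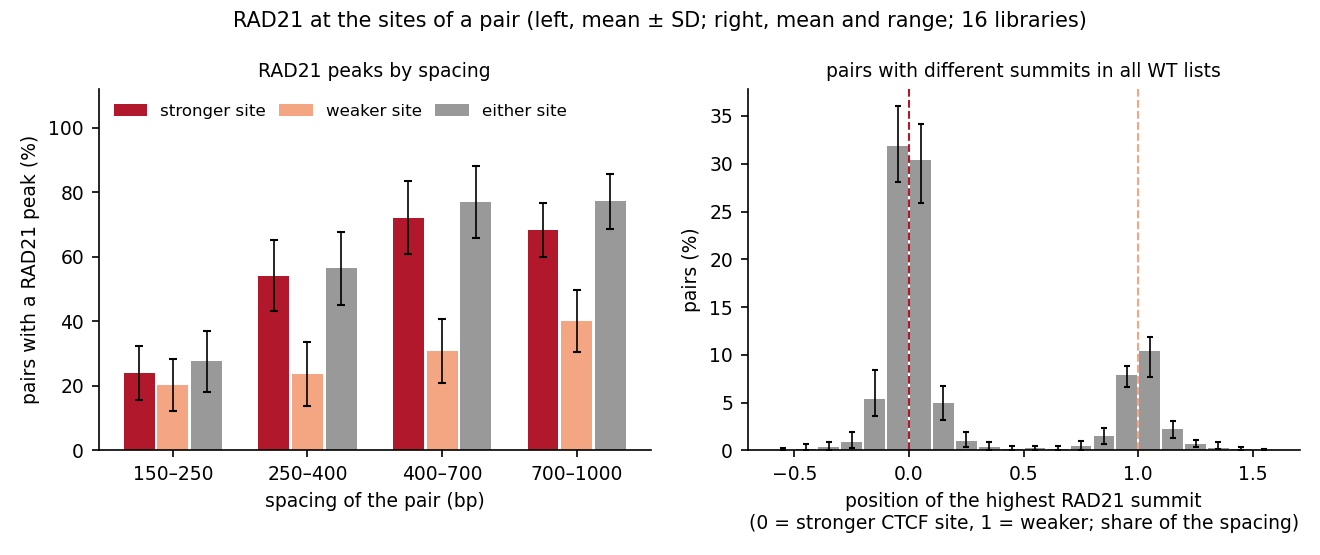
Left, percentage of pairs with a RAD21 peak over the stronger, the weaker or either site by spacing (mean ± SD over 16 libraries). Pairs of equal WT CTCF fold are kept there, labelled by position. Right, position of the highest RAD21 summit along pairs with separate summits, as a share of the spacing (bars, mean; lines, lowest and highest library); the taller peak is at the stronger CTCF site (0) and the smaller at the weaker (1).

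Tandem sites lay nearer to gene starts. Of 4803 tandem sites with a start to measure from, 424 (8.83%) lay within 500 bp of one, against 5.49% of isolated and 6.10% of all sites. The median distance was 14714 bp for tandem and 24761 bp for isolated sites, and 60.2% of tandem and 58.6% of isolated sites fell inside a gene span. The RAD21 deficit was measured both near and away from gene starts. Within 2 kb of a start RAD21 covered 43.1% ± 13.1 of tandem and 55.9% ± 12.7 of isolated sites, and farther away 41.3% ± 9.05 of tandem and 54.7% ± 8.88 of isolated sites (SD, n = 16). The difference was below 0 in 16 of 16 libraries in both places. Positions of starts were measured on gene models, and no test was made of these counts because the sites were chosen together.

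The CBS alleles were next compared with WT over the members. RAD21 detection at tandem minus isolated sites averaged -13.0 points in mutant and -14.02 points in WT libraries. The difference of 1.02 points was within the spread between libraries (exact permutation of 12 against 4 libraries, 2-sided, p = 0.216; p = 0.536 when libraries were exchanged only among those with the same replicate number). Leaving out 1 library at a time gave 0.32 to 1.60 points, 0.32 without WT replicate 4 and 1.60 without WT replicate 2.

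Single members were compared on normal scores of their ranks among sites found in every library, fitted with limma over all sites. For CTCF, 2825 tandem sites entered, and at an adjusted p of 0.05 the call count was 0 in both Del(CBS1-5) and Del(CBS1), beside 0% of all 30182 sites in each. An unadjusted p under 0.05 was reached by 56 tandem sites in Del(CBS1-5) (1.98%, beside 1.62% of all sites), and by 176 when Del(CBS1) was compared (6.23%, beside 5.41%). For RAD21, 822 tandem sites entered and 0 were called in Del(CBS1-5), where 0.0475% of all 12643 sites were called (6 sites), and 0 in Del(CBS1), where 0% were. At an unadjusted p under 0.05 there were 77 tandem sites in Del(CBS1-5), against WT (9.37%, beside 9.7% of all sites), and 31 in Del(CBS1) (3.77%, beside 5.14%). These shares lay near those of all sites. The member with the smallest p in Del(CBS1-5) for RAD21 lay 13481 bp from Gm24242 (adjusted p = 0.0954 by limma), and the next lay 360 bp from Zyx, which encodes the focal adhesion protein zyxin (adjusted p = 0.0954). Without Del(CBS1-5) replicate 1 the RAD21 comparison called 9 tandem sites and 156 of all sites, and without Del(CBS1) replicate 1 the CTCF comparison called 3 tandem sites and 16 of all. The median change for CTCF in Del(CBS1) was 0.15 score units at tandem, -0.07 at isolated and 0.02 at all sites. For CTCF in Del(CBS1-5) it was 0.0039 at tandem and 0.0040 at isolated sites. For RAD21 it was 0.057 at tandem and -0.041 at isolated sites in Del(CBS1-5), and -0.0082 and -0.0042 in Del(CBS1). These medians were not tested.

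Loss of whole peaks was counted separately as a peak in every WT library and in no library of the genotype. For CTCF in Del(CBS1-5) this held for 75 of 4959 tandem sites (1.51%), beside 0.345% of isolated and 0.443% of all sites. In Del(CBS1) it held for 225 tandem sites (4.54%), beside 2.92% of isolated and 2.87% of all sites. For RAD21 in Del(CBS1-5) it held for 74 of 1403 tandem sites (5.27%), beside 3.19% of isolated and 3.57% of all sites, and in Del(CBS1) for 9 tandem sites (0.641%), beside 0.198% of isolated and 0.241% of all sites. Tandem shares were above the others in all 4 counts. Weak peaks and short lists move with such losses, tandem sites had lower folds, and their part in these counts was not tested.

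In the HoxD landscape, with 20 kb added on the outer sides of Evx2 and Hoxd1, 2 pairs were tandem, and both lay on the Evx2 side of the cluster. Neither had separate summits in all 3 WT lists, and in 1 WT list each pair had a single CTCF summit nearest to both sites. Evx2 encodes a homeodomain transcription factor and neighbours Hoxd13. The pair inside Evx2 lay at positions 74655517 and 74655823 of chromosome 2, 306 bp apart. At its first site the CTCF fold ranged from 3.72 to 9.51 over 11 mutant libraries (median 6.14) and was 7.82, 6.01 and 7.05 in the WT libraries. At its second site CTCF was found in 10 of 11 mutant libraries, with folds from 2.57 to 8.42, and in the 3 WT libraries with 7.34, 6.01 and 6.11. Mutant and WT values overlapped at both sites, and RAD21 had no peak over either site in any of the 16 libraries.

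The other HoxD pair lay in the span of Gm31790, at positions 74661718 and 74661969 of chromosome 2, 251 bp apart. Its CTCF percentiles were lower than those of the Evx2 pair, with WT means of 17.5 and 21.6, against 37.9 and 33.7 at the Evx2 pair. The CTCF fold of the first site ranged from 3.03 to 8.81 over 11 mutant libraries (median 4.72) and was 4.56, 4.60 and 5.29 in WT. RAD21 was present at the first site in 11 of 12 mutant libraries, with folds from 6.06 to 13.2, and in the 4 WT libraries with 5.71, 7.79, 9.38 and 10.8. The exception was Del(CBS1-5) replicate 2, the shortest RAD21 list, and the second site had RAD21 in all 16 libraries. With all alleles pooled, mutant and WT values overlapped. The CTCF folds of Del(CBS1-4), 4.41 and 4.21 at either site, were however below every WT value. At the second site so were those of Del(CBS1-3), 4.84 and 3.19, beside 5.33, 5.00 and 5.29 for WT. For RAD21 at the second site limma gave an adjusted p of 0.537 with Del(CBS1-5), against 0.947 with Del(CBS1). In all 11 mutant and 4 WT libraries with RAD21 at both sites, 1 RAD21 summit was nearest to both, so the folds of the sites are the same value. The nearest CTCF summit was also shared in 10 of 11 mutant libraries and in 1 of 3 WT libraries.

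**Figure D5:**
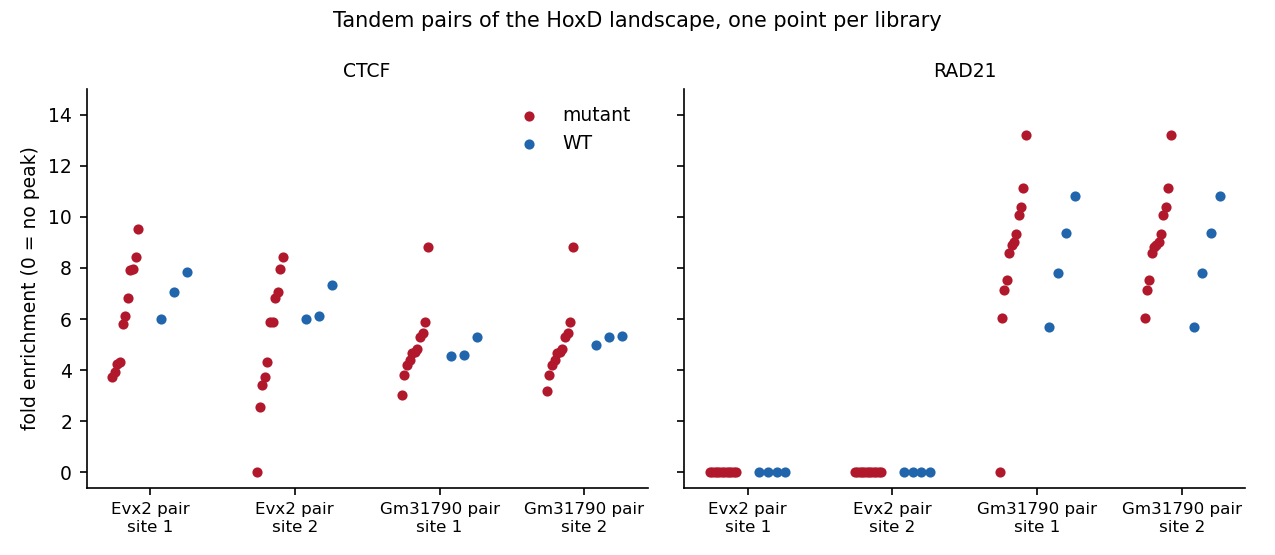
CTCF (left) and RAD21 (right) fold enrichment at the 4 tandem sites of the HoxD landscape, one point per library, mutant (red) left of WT (blue); 0 marks no peak. RAD21 was absent from both Evx2 sites in all 16 libraries and present in 15 and 16 libraries at the Gm31790 sites.

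Gene lists of the trunk and of known CTCF biology were read for tandem sites within 5 kb of a gene body. Of all sites, 10.7% were tandem. Tandem sites were 4 of 11 sites around the HoxD genes, 2 of 20 around the other Hox clusters, 8 of 49 in imprinted domains and 4 of 35 in the protocadherin clusters. They were 3 of 24 around neural tube regulators, 4 of 20 around somite and muscle regulators and 7 of 36 around limb and lateral plate regulators. They were 0 of 12 around globin and blood genes, 4 of 25 around CTCF and cohesin genes and 9 of 35 around ribosomal protein genes. These counts are small and were not tested.

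Imprinted domains gave 4 genes with pairs. H19, a noncoding RNA whose imprinting control region is bound by CTCF on the unmethylated maternal copy, had a pair 2230 and 2612 bp from its gene body, 382 bp apart with separate summits in all WT lists. RAD21 was found at both sites in all 16 libraries. Its fold was 3.60, 5.78 and 7.43 at the site nearer H19 and 3.59, 4.33 and 5.62 at the other (lowest, median and highest library), while the mean WT CTCF fold was 3.86 at the nearer and 5.12 at the other site. The RAD21 values overlap, and the site with less CTCF had the higher RAD21 median. Meg3, a maternally expressed noncoding RNA, had sites 780 bp apart with WT CTCF folds of 11.1 and 5.98, and RAD21 in 16 libraries at the stronger and in 0 at the weaker. The pair in the span shared by Snhg14 and Snrpn, 293 bp apart, had RAD21 in 16 libraries at the stronger and 6 at the weaker site. Its sites did not have separate CTCF summits in all WT lists. The pair in Blcap near Nnat had RAD21 in 5 and 2 libraries.

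Protocadherin, Hox and patterning genes showed both kinds of pair. The Pcdha genes, which encode neuronal adhesion proteins chosen by promoter and enhancer CTCF sites, had 2 pairs, 585 and 654 bp apart. In the first, RAD21 was found in 9 libraries at the weaker and in 0 at the stronger CTCF site, and in the second in 12 at the weaker and 10 at the stronger. Beside Hoxb13, the posterior gene of HoxB, a pair 423 bp apart had RAD21 in 13 libraries at the stronger site and in 0 at the weaker. At Nkx2-2, a homeobox gene of the ventral neural tube, 3 sites had WT CTCF folds of 5.51, 7.17 and 8.14. RAD21 there was found in 16, 12 and 12 libraries, with mean folds of 9.88, 8.69 and 3.23, so that the order of RAD21 was opposite to that of CTCF. In the muscle regulator Myod1 the sites were 654 bp apart, with RAD21 in 15 libraries at the stronger and 0 at the weaker site. The pair between Ttyh3 and Lfng, a regulator of Notch signalling in somites, had RAD21 in 16 and 14 libraries with mean folds of 11.6 and 11.9. In Lmx1b, which specifies dorsal limb identity, RAD21 was found in 13 libraries at the stronger and 0 at the weaker site. Pairs near Hand2 and Prrx2 had no RAD21 peak in any library. The pairs at Hoxb13, Lfng, Lmx1b, Hand2 and Prrx2 did not have separate CTCF summits in all WT lists.

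Pairs at cohesin and ribosomal protein genes included uneven ones. In Nipbl, whose product loads cohesin, sites 999 bp apart had WT CTCF folds of 13.5 and 2.61 and RAD21 in 14 and 0 libraries, and a pair 164 bp apart had none. Rpl11 had sites 108 and 704 bp from its gene body, with WT CTCF folds of 16.4 and 3.25, and RAD21 in 16 libraries at the stronger and 1 at the weaker. At Rpl13 the folds were nearly equal, 3.88 and 3.87, while RAD21 was found in 13 libraries at the first of these sites and 1 at the other. Near Rpl4, 3 sites had RAD21 in 7, 11 and 14 libraries.

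The 10 pairs whose weaker site had the highest WT CTCF percentile lay at most 416 bp apart, and none had separate summits in all WT lists. The first lay in Gm29677, 194 bp apart, with a WT CTCF fold of 12.8 at both sites and RAD21 in 16 libraries at both. The pair in Dtwd2, 280 bp apart, had folds of 12.6 and 12.5 and RAD21 in 16 and 13 libraries. At Cacna1a, a calcium channel gene, the folds were 13.5 and 11.7 while the RAD21 folds were only 4.50 and 4.63, each in 12 libraries. Next to Mreg the pair had folds of 16.97 and 13.9. The 13.9 was a mean of 18.9, 4.64 and 18.2 in the 3 WT libraries, and the low value came from WT replicate 2. In WT replicates 1 and 3 the stronger site had the same folds, 18.9 and 18.2. A summit lay within 100 bp of the weaker site in only 1 WT list. The weaker site was likewise lowest in WT replicate 2 at Grm8, Galnt17, Skint11 and A230054N11Rik. There too its folds in WT replicates 1 and 3 equalled those of the stronger site, and only 1 WT list had a summit within 100 bp.

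Pairs with the most CTCF still differed widely in RAD21. The pairs ranked here were the top 25% by the WT CTCF percentile of the weaker site. The 5 highest lay near Ccdc7a, Ccdc9, 1700001O22Rik, Grik4 and Gm13552, with mean RAD21 folds from 12.1 to 15.4. None of the 5 had separate CTCF summits in all WT lists. Grik4 encodes a kainate receptor subunit, and its pair began 262 bp from the gene start. At the low end 25 of these 569 pairs had no RAD21 peak in any library. The first 5 of these ties in genome order lay in or near Gm23472, Cfap65, Dnah14, Dennd1a and Fbln7, and their WT CTCF folds were 7.40 to 9.74. The Gm23472 pair, 206 bp apart, had separate summits in all WT lists and CTCF in all 11 mutant libraries at both sites.

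The largest group had 8 sites beside Rn18s-rs5, named as a sequence related to 18S ribosomal RNA, on chromosome 17. Its WT CTCF folds were 1.87 to 3.69, while RAD21 was found in 15 libraries at 1 site and in 16 at the other 7, with mean folds from 2.03 to 2.45. Low and nearly even folds for both antibodies over neighbouring sites set this group apart from pairs such as Rpl11. The groups of 4 lay near Gm30331, Gm25622 and Gm9637 and in Col22a1, the other group of 4 being outside the naming rule.

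The limit of 1000 bp cuts through a continuous range. Just inside it stood the Gm36486 pair at 1000 bp and the Gm26812 and Nipbl pairs at 999 bp. In the Gm26812 pair, whose promoter site is printed above, RAD21 folds ran from 7.43 to 12.5 (median 9.57) at the promoter site and from 3.42 to 6.82 (median 4.93) at the other. These ranges do not overlap, although the promoter site had the lower WT CTCF fold, 8.52 against 9.66 at the other. Just outside stood sites near Gm5334 and in Atl1, both 1001 bp apart, and in Sorcs2, 1002 bp apart. Near Gm5334 the WT CTCF folds were 10.0 and 9.67, while RAD21 was found in 16 libraries at one site and in 0 at the other.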

How the data were processed

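ChIPmentation of CTCF and RAD21 was analysed from 30 peak lists, 1 per library, called by the authors for each library alone. The submitters' processing notes name MACS2 2.1.1.20160309 and Bowtie2 2.3.5, also cutadapt 1.16, Picard 2.19.0, bedtools 2.27.1 and SAMtools 1.9, with the mm10 build. Their options are not given in the sources used here. The deposited lists give each summit a score (a rescaled -log10 q), a fold enrichment (a ratio to the local background), a -log10 p and a -log10 q. They hold no counts, so depth was unknown, no counting interval is given, and precision is the spread between libraries. Fold was compared as ranks within a library, or as a description.

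The members, gene lists and tests were chosen with earlier results of these data known. A library's value at a site was the fold of the nearest summit in the peak interval covering it. A fold percentile ranks a site among the detected autosomal sites, with 0 where no peak covered it. Class differences were tested by 2-sided sign-flip permutation over libraries (all flips enumerated) or by exact permutation between 12 and 4 libraries, adjusted by Benjamini-Hochberg over 7 tests (scipy 1.17.1 and statsmodels 0.14.6 in Python 3.11.15, with pandas 2.3.3 and numpy 2.4.6). Rank changes used limma 3.58.1 in R 4.3.3 with trend and robust fitting, 1 coefficient per genotype, adjusted over all sites at 0.05. The procedures were tested on simulated data. Embryos were dissociated one by one per the labels, and nothing there ties equal replicate numbers. Correlations of same-numbered deviations ran from -0.26 to 0.28, so no pairing was used.

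The text names all HoxD members, the 10 pairs with the strongest weaker site, the 5 largest groups, 5 pairs with the highest and 5 with the lowest RAD21 (ties in genome order) among the top 25% of pairs, members near listed genes (at most 4 genes a list), members called by limma, and 3 pairs on each side of 1000 bp. Promoter windows and gene spans came from RefSeq tables of GRCm38.p6; gene starts were not used for chromosome 18. Motifs away from promoters were not analysed here. Alternatives were a summit within 100 bp, a -log10 q of at least 10, sites in 2 WT lists, linking within 100 bp, neighbours within 500 bp, pairs only, another comparison group, the stronger site only, strength classes, the replicate block, -log10 p ranks, plain limma, no weak sites and leaving out each library. Pairs with separate summits and classes of -log10 p were added after the data were seen.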

Additional observations from a re-analysis of the deposited data

How the results depend on the processing

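CTCF detection, tandem minus isolated, was -2.12 points and turned to 2.56 for peaks with a -log10 q of at least 10, 3.98 for the stronger site only, 3.12 within the strength classes and 3.39 for pairs with separate summits. It was larger in the other direction with a summit within 100 bp (-17.3), summits linked within 100 bp (-7.17), sites in 2 WT lists (-5.31) and neighbours within 500 bp (-4.68). The CTCF percentile difference of -20.6 was -0.0445 within the strength classes, -3.41 with ranks of -log10 p, -4.86 for the stronger site only, -32.7 with a summit within 100 bp and -31.1 with summits linked within 100 bp. RAD21 detection turned from -13.3 points to 1.15 for the stronger site only; it was -1.94 for pairs with separate summits and -22.9 with summits linked within 100 bp. The RAD21 percentile difference of -15.0 was -6.33 with ranks of -log10 p and -9.52 for the stronger site only. RAD21 detection within the strength classes was 3.74 points, 0.86 with a summit within 100 bp (permutation p = 0.0554), -1.38 for neighbours within 500 bp, -0.64 against all sites with no neighbour within 1000 bp, 2.03 for sites in 2 WT lists, 1.46 with summits linked within 100 bp, 6.95 for peaks with a -log10 q of at least 10, 6.09 for the stronger site only, 14.8 for pairs with separate summits, -9.00 with classes of -log10 p and -3.85 with those classes and separate summits. The mutant minus WT difference was 1.02 points and -0.0472 for the stronger site only. The cause of these changes was not tested. The stronger site was picked by its WT CTCF fold, while isolated sites were not picked. Of 210 alternative values, 188 were the same as the main result, 10 were reversed, 2 were weaker and 10 were stronger. For class differences, the same means an equal direction and side of the 0.05 threshold. For limma it means an equal count of tandem sites called. Most of the 210 left out 1 library at a time. The reversed and weaker values all came from the other alternatives.

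Leaving out 1 library at a time gave -2.34 to -1.76 points for CTCF detection, -21.0 to -20.3 for its percentile, -13.4 to -13.1 for RAD21 detection, 3.64 to 3.93 within classes, -15.2 to -14.8 for the RAD21 percentile, 0.32 to 1.60 for mutant minus WT, and 31.9 to 32.2 for the summit nearer the stronger site. Tandem sites called by limma ranged from 0 to 1 for CTCF in Del(CBS1-5), 0 to 3 for CTCF in Del(CBS1), 0 to 9 for RAD21 in Del(CBS1-5) and 0 to 0 for RAD21 in Del(CBS1); a genotype left with 1 library was assumed to vary like the others. RAD21 in Del(CBS1-5) gave 1 tandem call with -log10 p ranks, beside 13 over all 12643 sites, and 1 without trend and robust fitting, beside 5.

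With the replicate block the mutant minus WT difference had a permutation p of 0.536, and limma called 0 tandem sites in each of the 4 comparisons. Pairs closer than the fragment length, unknown depth and 1 or 2 libraries of some genotypes limit what these lists can show.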
